A study of Homo sapiens with 2 samples.

Results

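The ZNF genes of human chromosome 19 were compared between sorafenib-resistant and parental cells labelled HepG2, a liver cancer line. Members were all genes of the deposited table whose symbol is ZNF followed by a number, with or without a letter A to D, and whose locus is on chromosome 19. This gave 249 of 50868 genes. Messenger RNA was sequenced from 1 parental culture, labelled WT and without treatment, and from 1 resistant culture, labelled sorafenib resistance and sorafenib-treated. Sorafenib, a multikinase inhibitor taken by mouth, is a treatment of liver cancer. Selection began at 2.5 µM, was raised by 0.5 µM at a time and ended at 7 µM. With 1 library per group there was no replicate check, no test of the conditions was possible, and a gene is called higher or lower below by size alone. The sources used here do not say whether the resistant culture was 1 clone or a pool. In bulk RNA fewer cells of a type and less RNA per cell cannot be told apart.

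Most ZNF proteins bind DNA through arrays of C2H2 zinc fingers, short folds held by a zinc ion. Many of those on chromosome 19 begin with a KRAB domain, which recruits the corepressor TRIM28 and, through it, the histone methyltransferase SETDB1 and heterochromatin proteins. They arose by tandem duplication, lie in clusters, and are known above all for silencing transposable elements. In cancers, promoters of several of them, among them ZNF582, ZNF471, ZNF677 and ZNF671, have been described as methylated. These examples were chosen after their counts here were seen, and methylation was not measured.

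Most of these genes were at like levels in both libraries, and a minority were not detected. Of the 249, 43 had no count in either library, 7 of them side by side near the end of the long arm. For scale, 27233 of all 50868 genes had no count, as had 317 of 1211 other protein-coding genes of chromosome 19. Differences were called by a size rule, given below, that adds a constant to each level. Among the 161 that were measured, 2 were higher in resistant cells by this rule, ZNF555 and ZNF527 (all measured genes 1.31%). By the same rule 8 were lower (all measured genes 0.994%), led by ZNF497, ZNF358 and ZNF28. The constant shrinks folds, so some members with plain folds above 2 did not pass. Examples are ZNF791 (2.06-fold higher) and ZNF442 (10.2-fold lower, on few counts).

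A short sequence, which the choice by name and chromosome did not use, occurred in a large minority of the members' promoters. The letters CCGGAAG, the core that ETS-family transcription factors recognise, were searched on both strands (CTTCCGG on the other) in RefSeq promoter windows on GRCh38.p14, from 250 bases before to 50 after each start. The first listed start of each gene was used, and 216 of the 249 genes had one. The letters occurred in 98 of these windows (45.4%). They occurred in 13.8% of 15644 windows of other protein-coding genes, in 13.0% of 969 windows of other protein-coding genes of chromosome 19, in 34.1% of 214 windows of ZNF genes on other chromosomes and in 10.7% of all 27326 windows. The windows below are cut to 90 bases before and 30 after the start and are printed 5′ to 3′, with the match in capitals. The first 4 are those of the members with the highest expression and a match near the start. ZNF146 is shown as the most abundant member, ZNF555 and ZNF358 as members that differed between the libraries, and none of these has the letters in its window. ZNF708, which also differed, has a match only further into the transcript than the printed stretch.
ZNF787, chr19:56121266-56121385, minus strand: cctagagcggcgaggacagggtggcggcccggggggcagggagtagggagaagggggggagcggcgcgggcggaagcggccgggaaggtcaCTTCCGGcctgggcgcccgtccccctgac
ZNF865, chr19:55605557-55605676, plus strand: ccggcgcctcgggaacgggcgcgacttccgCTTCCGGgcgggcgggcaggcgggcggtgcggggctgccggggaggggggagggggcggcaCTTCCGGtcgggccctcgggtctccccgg
ZNF580, chr19:55640912-55641031, plus strand: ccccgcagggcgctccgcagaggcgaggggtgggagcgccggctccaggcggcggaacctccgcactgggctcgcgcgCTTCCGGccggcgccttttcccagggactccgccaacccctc
ZNF416, chr19:57578882-57579001, minus strand: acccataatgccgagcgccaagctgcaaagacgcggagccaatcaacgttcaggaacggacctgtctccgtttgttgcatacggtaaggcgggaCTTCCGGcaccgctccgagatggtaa
ZNF146, chr19:36215016-36215135, plus strand: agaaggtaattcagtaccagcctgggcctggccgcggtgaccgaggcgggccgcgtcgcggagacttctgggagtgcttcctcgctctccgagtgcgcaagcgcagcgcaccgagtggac
ZNF555, chr19:2841385-2841504, plus strand: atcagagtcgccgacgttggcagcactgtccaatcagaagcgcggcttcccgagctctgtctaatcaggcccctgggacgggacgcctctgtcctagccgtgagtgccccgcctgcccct
ZNF358, chr19:7516013-7516132, plus strand: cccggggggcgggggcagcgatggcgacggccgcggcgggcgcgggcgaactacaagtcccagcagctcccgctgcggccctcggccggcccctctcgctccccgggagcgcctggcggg
ZNF708, chr19:21329381-21329500, minus strand: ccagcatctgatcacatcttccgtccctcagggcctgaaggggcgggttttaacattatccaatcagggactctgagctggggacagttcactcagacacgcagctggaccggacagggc

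The match had a preferred place. In 81 of the 98 windows a match began between 40 bases before and 20 after the start. The first 4 windows above were picked for such a match. In the 25 bases before the start, 19.9% of the member windows had a match, against 3.49% of those of other protein-coding genes. In the first 25 bases after it the shares were 14.4% and 2.24%. The other protein-coding genes too had their highest share in the bin before the start, so the place is not particular to the members. Of the other letters searched, the GC box GGGCGG occurred in 67.6% of member windows and 58.4% of the others, AAGATGG, the core bound by YY1, in 7.87% and 6.37%, and TATAAA in 1.85% and 9.73%. Tandem duplicates descend from shared promoters, so the windows are not independent. A match is a run of letters and not a shown binding site, and its absence says only that these letters are not in the window.

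**Figure D1:**
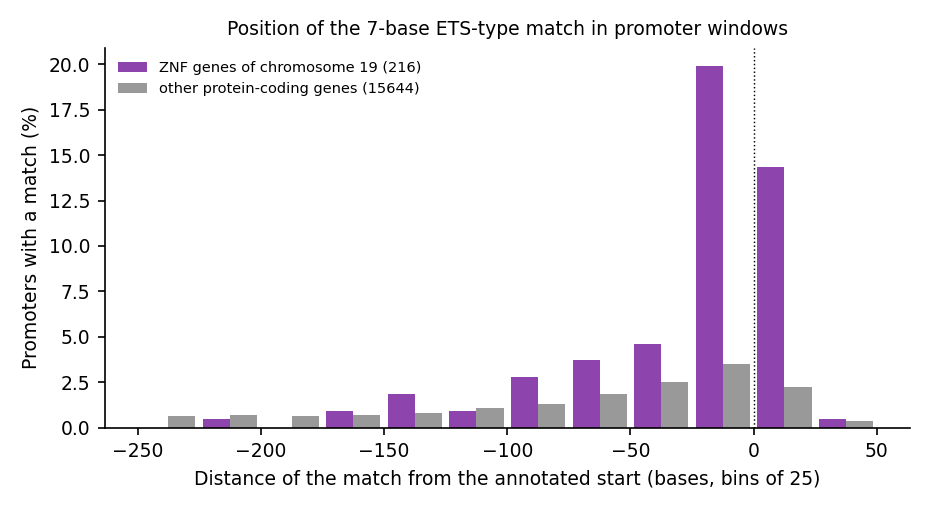
Share of promoter windows, in percent, with a CCGGAAG match in either orientation, by the distance in bases of the match from the annotated start, in bins of 25 bases, for 216 ZNF genes of chromosome 19 (purple) and 15644 other protein-coding genes (grey). The purple bars stand highest in the bin before the start (19.9%) and the bin after it (14.4%).

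The share of windows with the match differed between clusters of the chromosome. Clusters were runs of at least 5 members with no gap over 1 Mb, which gave 9 clusters and left 11 members outside, numbered here from the end of the short arm. In cluster 4, which lies at the border of the centromere, 21 of 29 windows held the match. In clusters 8 and 9, the last of the long arm, it was in 20 of 32 and 33 of 54. In cluster 3 of the short arm it was in 2 of 24, and in cluster 1 in 0 of 5. The letters did not separate expressed from unexpressed genes. They were in 44.8% of windows of measured members (145), in 55.3% of windows of members below the limit of measurement (38) and in 36.4% of windows of members with no count (33).

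Proteins translated from GENCODE 29 coding sequences were available for 247 members. They held a median of 12 C2H2 fingers, from 0 to 36, by the pattern Cys, 2 residues, Cys, 12 residues, His, 3 residues, His. Variants in spacing are not in these numbers and add fingers in some members, as in ZNF414 with 4 instead of 1. A KRAB pattern was found in 201 of the 247 (81.4%). A stricter form of that pattern found 174, and either can miss a KRAB domain, so a member without the pattern is not shown to lack one.

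The parental library held 18067146 counts and the resistant library 16811907. Counts were scaled to counts per 1e6 (CPM), and a gene was taken as measured when the larger of its 2 CPM values was at least 1. A count of 0 allows up to 3 counts, or 0.166 CPM in parental and 0.179 CPM in resistant cells. Of 8 hepatocyte markers, 7, among them ALB and AFP, had no count in either library and HNF4A had 2 counts in each, so the labelled hepatocellular identity was not seen in these libraries. Of 4 epithelial markers, KRT8 had 14470 and 13692 counts, KRT18 9910 and 11238, CDH1 5 and 20, and EPCAM none. Of 5 fibroblast markers, COL1A1 had 2565 and 2611, COL3A1 3941 and 3267, LUM 93 and 216, and COL1A2 and PDGFRA none.

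Expression of the ZNF genes was low and uneven. Of the 249, 161 were measured, 45 had counts but stayed below 1 CPM, and 43 had no count in either library. The measured share, 64.7%, was above the 28.9% of all genes and the 56.0% of other protein-coding genes of chromosome 19. The median of the measured members was 7.40 CPM in parental and 7.04 CPM in resistant cells, against 26.0 and 26.3 CPM over all 14686 measured genes. Per length, in the deposited FPKM, the medians were 0.829 and 0.782 for the members and 3.63 and 3.58 for all measured genes. ZNF genes of other chromosomes were measured more often, 211 of 263, and their median was 16.2 CPM in the parental library.

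ZNF146, which encodes a protein almost entirely of fingers with no KRAB domain, was the most abundant member per length at 24.7 FPKM in parental and 23.4 FPKM in resistant cells. It lies on chromosome 19 from 36214602 to 36238774. Its counts were 3813 and 3361, a 1.05-fold lower level in the resistant library (95% counting interval 1.002 to 1.10). The next 5 were far lower. ZNF428 had 7.98 and 8.50 FPKM, ZNF787 7.28 and 7.54, ZNF579 5.62 and 6.62, ZNF581 7.22 and 4.18, and ZNF865 5.11 and 5.71. All 6 lack the KRAB pattern. Folds of resistant over parental were 1.072 for ZNF428, 1.04 for ZNF787 and 1.12 for ZNF865, with counting intervals that include 1, and 1.18 for ZNF579 (1.02 to 1.37). ZNF581 stood apart, with 423 and 228 counts, 1.72-fold lower in the resistant library (1.46 to 2.03). Its exons overlap those of ZNF580 and CCDC106 on the same strand, and the counts of these 3 genes summed to 1236 and 926. The log2 ratio of that sum was -0.30, against -0.74 for ZNF581 alone. ZNF580 alone was at -0.18 and CCDC106 at -0.02, and the part of read assignment in these values was not tested. The length that the authors' FPKM implies is a median of 1.71 times the merged exon length in GENCODE 29, so order per length is approximate. By counts per kb of merged exons ZNF146 and ZNF428 again stood first, with ZNF581, ZNF580, ZNF787 and ZNF700 behind them.

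Members with the KRAB pattern were less abundant than those without it. In the parental library the median of the 124 measured members with the pattern was 0.703 FPKM, and that of the 37 without it 1.53 FPKM. In the resistant library the medians were 0.682 and 1.36 FPKM. The pattern was found in 77.0% of measured members, in 88.6% of those below 1 CPM and in 90.5% of those with no count. Genes with more fingers had lower FPKM (Spearman's rho = -0.28 over 161 measured members, a description across genes that share ancestry and gene length).

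**Figure D2:**
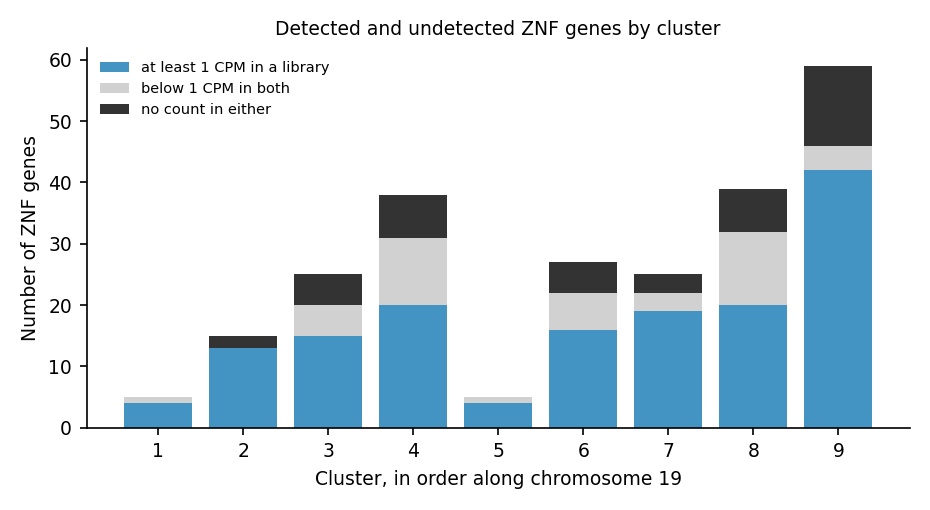
Number of ZNF genes in each of the 9 clusters, in order along chromosome 19, divided into those at 1 CPM or more in a library (blue), those with counts but below 1 CPM in both (light grey) and those with no count in either (black). Cluster 9 is the largest with 59 genes, of which 13 had no count, and clusters 1 and 5 had no undetected gene.

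Undetected members lay side by side in places. The share measured ran from 51.3% in cluster 8 (20 of 39) and 52.6% in cluster 4 (20 of 38) to 86.7% in cluster 2 (13 of 15). The longest run of neighbours with no count in either library held 7 genes of cluster 9, ZNF582, ZNF583, ZNF667, ZNF471, ZNF470, ZNF71 and ZNF835. It spans 296 kb of chromosome 19 from 56375846 to 56671783 (GRCh38). The 14 other genes of the deposited table that lie wholly inside it, among them the protein-coding ZFP28 and SMIM17, had no count either. The members on its sides were expressed in both libraries: ZNF444, a SCAN-domain regulator of the scavenger receptor gene SCARF1, had 170 and 209 counts and ZNF264 had 438 and 317. Further along the same cluster ZNF418, ZNF256, ZNF606 and ZNF135 formed a second such run over 164 kb from 57921884 to 58086310, and all 8 other genes inside it, ZSCAN1 and C19orf18 among them, were at 0. ZNF417, on one side, had 186 and 176 counts, and ZNF329, on the other, 161 and 98. Runs of 3 genes were found in cluster 4 (ZNF99, ZNF723, ZNF728), cluster 6 (ZNF569, ZNF570, ZNF793) and cluster 8 (ZNF347, ZNF665, ZNF677). These were not all free of expression: 1 of the 5 other genes inside the run of cluster 8 had 283 and 256 counts, and 1 of the 7 inside that of cluster 4 had 0 and 1. No member with a count of 0 in 1 library had more than 3 counts in the other. Promoters of undetected members were not poorer in CG pairs, with a median of 20 per window as in the measured ones. DNA methylation was not measured here. Exons shared on the same strand, where reads could be given to another gene, were present in 12 of the 43 members with no count and in 51 of the 161 measured.

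Few ZNF genes of chromosome 19 differed by much between the libraries. The size rule was a log2 ratio of resistant over parental, with 1 added to each CPM, of at least 1 or at most -1. By this rule 2 of the 161 measured members were higher in resistant cells and 8 lower. Over all measured genes 1.31% were higher and 0.994% lower. Among genes of 1 to 10 CPM, where most members lie, the shares were 1.75% and 1.31%, or 3.06% in either direction. The members' count of higher genes is 1.24% of 161, near this background, and the count of lower genes is 4.97%, above it, on 8 genes. Among the 91 members of 1 to 10 CPM, 2 were higher and 6 lower (6.59%). Of the 70 members of at least 10 CPM 0 were higher and 2 lower, against 1.12% and 0.865% of all genes at that level, or 1.99% in either direction. No test stands behind these shares.

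**Figure D3:**
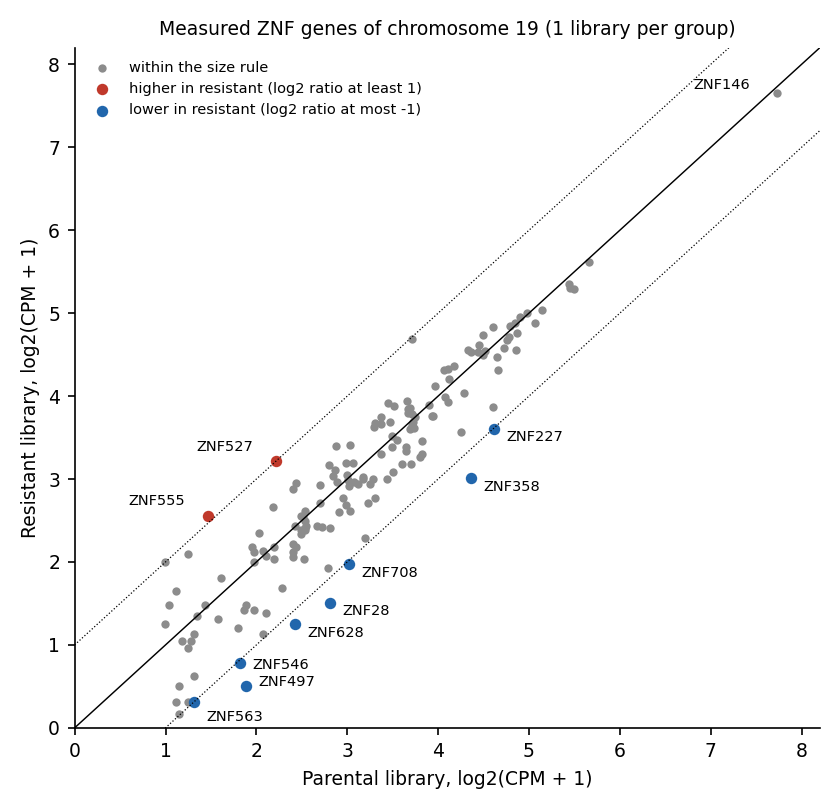
Level of the 161 measured ZNF genes of chromosome 19 in the parental (horizontal) and resistant (vertical) library, both as log2(CPM + 1), 1 point per gene; the solid line marks equal levels and the dotted lines a log2 ratio of 1 and -1. The 2 red points above the upper line are ZNF555 and ZNF527, and the 8 blue points at or below the lower one include ZNF358 and ZNF227.

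The 2 higher members were KRAB zinc finger genes of low abundance. ZNF555, whose product is known as a regulator of SLC25A4 (ANT1) in muscle cells, had 32 parental and 82 resistant counts, 2.77-fold higher (1.82 to 4.31). It lies in cluster 1, from 2841435 to 2860484 on the plus strand. ZNF527, in cluster 6 from 37371061 to 37393066, had 66 and 139 counts, 2.28-fold higher (1.69 to 3.10) and at the size rule with a log2 ratio of 1.001. Just short of it stood ZNF613 with 18 and 50 counts and ZNF791 with 219 and 417. Of these 4 genes ZNF791 had the most counts, and its 2.06-fold difference (1.74 to 2.44) the narrowest interval.

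The 8 lower members came from 6 clusters and 1 locus outside them. ZNF358, a gene of 9 fingers without the KRAB pattern in cluster 2 (7515292 to 7521026), had 354 parental and 118 resistant counts. This was 2.78-fold lower (2.25 to 3.45), and adding the counts of the gene that shares its exons left the log2 ratio at -1.29, from -1.35. ZNF227, a KRAB zinc finger gene of cluster 7 (44207547 to 44237268), had 425 and 187 counts, 2.10-fold lower (1.77 to 2.51). These were the only 2 of the 8 above 10 CPM in the parental library. ZNF235, on the opposite strand over part of ZNF227, had 127 and 122 counts, and the strand setting of the counting is not given. For both genes together the log2 ratio was -0.70, against -1.01 for ZNF227 alone.

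ZNF497, in cluster 9 (58354357 to 58362848), had the lowest log2 ratio at -1.39, on 49 and 7 counts, 6.48-fold lower (2.92 to 16.9). ZNF628, at the other end of the same cluster (55476332 to 55484487) and known for a part in spermatogenesis, had 79 and 23 counts, 3.18-fold lower (1.98 to 5.30). ZNF28, in cluster 8, had 109 and 31 counts, 3.25-fold lower (2.17 to 5.02). Its exons overlap those of ZNF468 on the same strand by 29 bases, and ZNF468 alone had 101 and 73 counts. The 2 genes together had 210 and 104 counts, a log2 ratio of -0.81. Because ZNF468 changed less, the sum lies nearer to 0 with or without shared reads. ZNF708, in cluster 4, had 129 and 49 counts, 2.44-fold lower (1.74 to 3.46). ZNF546, outside the clusters, had 46 and 12 counts, 3.55-fold lower (1.85 to 7.35), and ZNF563, in cluster 3, had 27 and 4, 6.24-fold lower (2.18 to 24.6). The last 2 rest on few reads, as their wide intervals show. Just short of the rule were ZNF442 with 22 and 2 counts, ZNF208 with 25 and 4, ZNF324B with 58 and 20, and ZNF524 with 148 and 65. ZNF524, a telomere-binding protein gene, overlaps FIZ1 on the opposite strand by 192 exon bases. The sum of both had a log2 ratio of -0.08, and FIZ1, with 307 and 333 counts, makes up most of that sum.

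**Figure D4:**
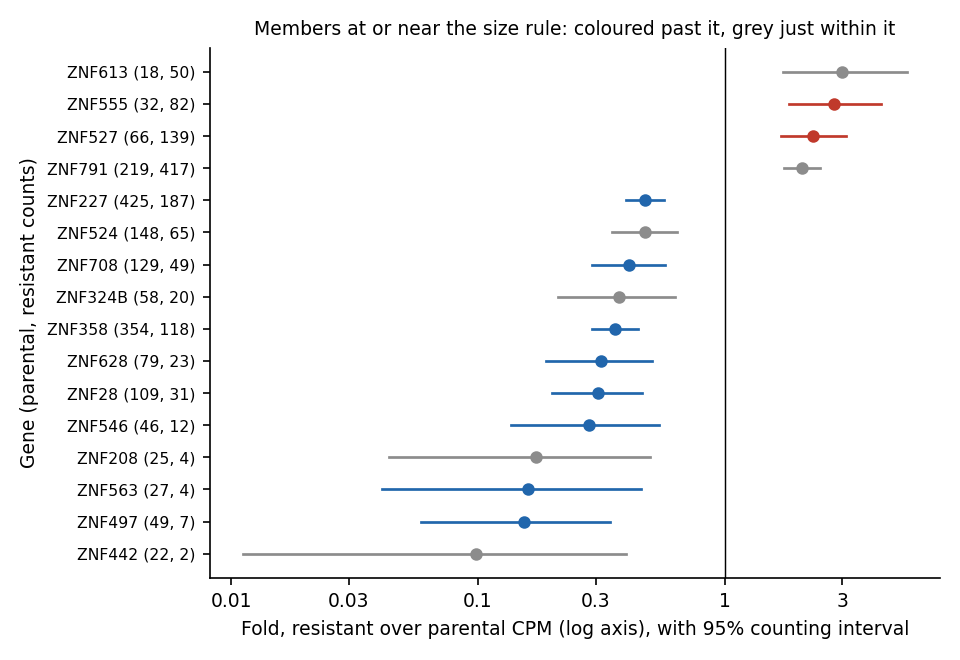
Fold of resistant over parental CPM on a log axis, with exact 95% counting intervals, for the 10 members past the size rule (red higher, blue lower) and the 6 just within it (grey), with the counts of both libraries beside each name. Intervals are narrow for ZNF227, ZNF358 and ZNF791 and widest for ZNF442, which had 2 counts in the resistant library.

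The authors' deposited table, which sets the same 2 libraries against each other, compared 197 of the members and called 4 UP and 13 DOWN. Over all 21518 genes compared there, 1.26% were UP and 1.03% DOWN. All 10 members past the size rule were called in the same direction in the authors' deposited table. Both come from the same 2 libraries, so this is not separate evidence. The 7 further calls were the 6 members just within the rule and ZNF419.

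Beyond these genes the members leaned slightly to lower values. The median log2 ratio of the 161 was -0.09, with quartiles of -0.31 and 0.15, and 96 of them (59.6%) were below 0. Over all measured genes the median was -0.0018 with 50.3% below 0. The 785 other measured genes of chromosome 19 had a median of -0.03 with 53.2% below 0, and the 211 ZNF genes of other chromosomes -0.03 with 58.3%. The lean was larger in the less abundant members, with a median of -0.15 at 1 to 10 CPM (63.7% below 0), where all genes of that level had 0.02 (47.6%). At 10 CPM or more it was -0.06, against -0.0061 for all genes. All 249 members summed to 34917 parental and 30647 resistant counts, a fold of 0.949 in CPM (0.934 to 0.963), and without ZNF146 the fold was 0.948. By their counting intervals alone 41 members were lower and 23 higher, or 25.5% and 14.3%, with 21.2% and 21.1% over all measured genes.

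The order of the members was nearly the same in both libraries. Across the 161, log2(CPM + 1) of the libraries had a Spearman's rho of 0.94, a value that genes of unequal length and level give readily. Members on the minus strand were below 0 in 48 of 67 cases (71.6%) and those on the plus strand in 48 of 94 (51.1%), with medians of -0.14 and -0.02. This split was noticed after the values were seen and was not tested.

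**Figure D5:**
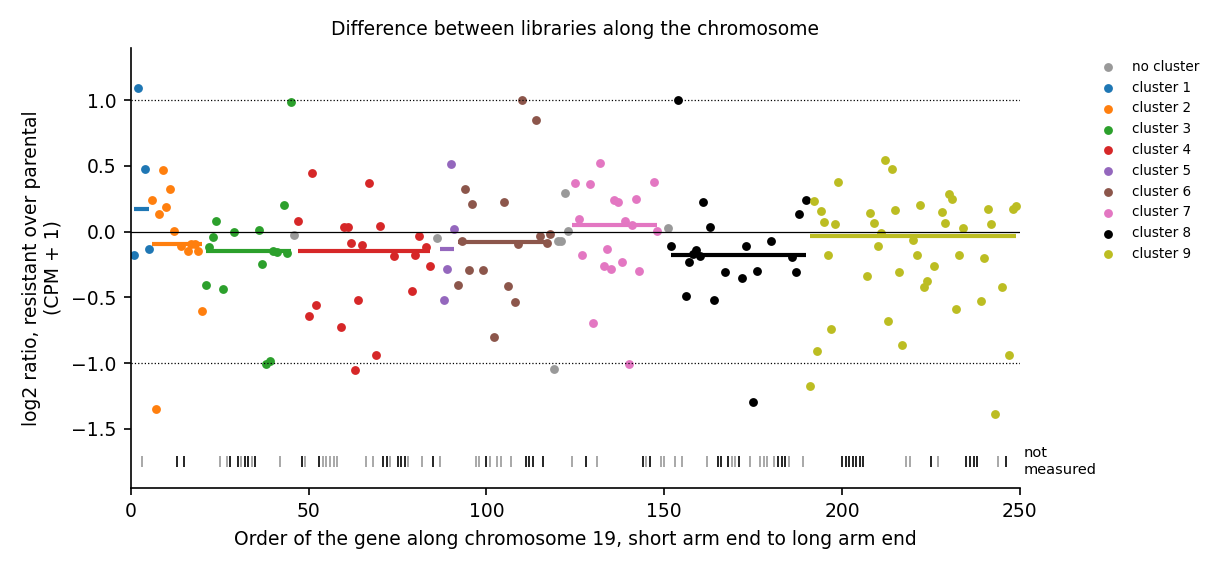
Log2 ratio of resistant over parental (CPM + 1) for each measured ZNF gene, by its order along chromosome 19, coloured by cluster; bars are cluster medians, dotted lines mark 1 and -1, and ticks below mark members with counts under 1 CPM (grey) or no count (black). Points scatter around 0 in every cluster, and the medians lie between -0.18 in cluster 8 and 0.17 in cluster 1.

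The measured members of every cluster were mixed in direction. Cluster medians ran from -0.18 in cluster 8 (20 measured members) to 0.17 in cluster 1 (4), and members above and below 0 were found in each of the 9. Both ends of this range changed sign in the deposited FPKM, to 0.016 in cluster 8 and -0.11 in cluster 1. That setting kept fewer members, 73 in all, and in cluster 1 only ZNF77, whose ratio in CPM was -0.13. The change of sign in cluster 1 thus goes with the genes kept, and the order of the clusters is not firm. The ratios of neighbouring measured members had a Spearman's rho of -0.06 over 160 neighbouring pairs and -0.06 over the 144 pairs within a cluster. With order along the chromosome the rho was -0.03 over 161. The counts summed over cluster 4 were 2912 and 2396, a fold of 0.889 (0.842 to 0.939), the lowest of the 9, and 14 of its 20 measured members were below 0. Its 10 other measured genes had a median log2 ratio of -0.18, beside -0.14 for the members. In cluster 6, 11 of 16 measured members were below 0, and its 7 other measured genes had a median of -0.41, with 1 above 0. In cluster 8, 15 of 20 members were below 0 and the summed fold was 0.925 (0.880 to 0.973). Its 10 other measured genes had a median of -0.11, with 2 above 0. In cluster 9 the 23 other measured genes were even, with a median of 0.02 and 12 above 0. Cluster 7 was even, with 11 of 19 above 0 and a summed fold of 0.999 (0.951 to 1.05). Cluster 1 was the 1 cluster with a summed fold above 1 by its interval, 305 and 343 counts or 1.22 (1.04 to 1.42), and ZNF555 holds 32 and 82 of these counts. The largest member ratio in cluster 5, which had no member past the size rule, was that of ZNF181 with 152 and 93 counts, 1.51-fold lower (1.16 to 1.98).

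The ratios were also set out by promoter class and by protein class. The 65 measured members with CCGGAAG in their window had a median of -0.14, with 0 higher and 1 lower (ZNF708). The 80 with a window and no match had a median of -0.06, with 2 higher and 6 lower, and ZNF28 has no window in the table. Over all measured genes 1.31% were higher and 0.994% lower, and with counts this small no difference between the classes was shown. By protein class the median was -0.11 in the 124 measured members with the KRAB pattern (2 higher, 5 lower) and -0.05 in the 37 without it (0 higher, 3 lower). The stricter form of the pattern, which was the planned one, set the classes further apart. With it the median was -0.11 in 103 measured members with the pattern (66.0% below 0) and 0.0019 in 58 without it (48.3%). The difference between these classes was not tested.

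Members with a known target or function were mostly close to equal; they were chosen after their values were seen. ZNF91, which represses SVA elements, had 139 and 112 counts, and its interval includes no difference. ZNF93, which represses a lineage of LINE-1 elements, had 53 and 28 counts, 1.75-fold lower (1.09 to 2.88). ZNF417 and ZNF587, a pair of near copies that bind endogenous retrovirus K, had 186 and 176 and 588 and 478 counts. ZNF587 was 1.14-fold lower (1.01 to 1.29), and the interval of ZNF417 includes no difference. They share 23.3% and 14.1% of their 75-base stretches with other gene loci, so reads may have been misplaced between them. ZNF274, which brings SETDB1 to the 3′ ends of zinc finger genes, had 797 and 639 counts, 1.15-fold lower (1.04 to 1.28). ZNF473, a factor of histone pre-mRNA processing, had 551 and 521. ZNF331, an imprinted gene, had 391 and 430, and ZNF224, a repressor of the aldolase A gene, 421 and 463, both 1.19-fold higher with intervals just above 1. ZNF382 had 5 counts and 1, and ZNF671 0 and 2, too few to compare. ZNF536, a neuronal gene, had none.

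The corepressors through which KRAB proteins act were all expressed, and none passed the size rule. All 31 genes of a list of KRAB partners, heterochromatin and DNA methylation factors were measured, and 0 of 31 is near the background of 2.30% over all measured genes. Their median log2 ratio was -0.07, with 13 above and 18 below 0, and their intervals lay above 1 for 3 and below 1 for 11. Over all measured genes the intervals lay above 1 for 21.1% and below 1 for 21.2%. TRIM28, the scaffold that KRAB domains bind, had 3838 and 3198 counts, a fold of 0.901 (0.859 to 0.944). SETDB1 had 1242 and 1074, a fold of 0.935 (0.861 to 1.01). The widest difference was in SUV39H1, another histone H3 lysine methyltransferase, with 942 and 529 counts and a fold of 0.607 (0.545 to 0.676). DAXX, a histone chaperone that works with ATRX, had 1253 and 863 (0.745), the DNA methyltransferase gene DNMT3B 228 and 159 (0.754), and the chromatin remodeller gene CHD3 8266 and 6494 (0.849).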

How the data were processed

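Messenger RNA of 1 parental and 1 resistant culture was sequenced, and groups were taken from the genotype and treatment labels. Per the submitters' processing notes, bcl2fastq 2.19, HISAT2 2.0.4 and StringTie 1.3.0 were used on build GRCh38. Annotation release, counting settings and use of strand were not given in the sources used here. Genes that overlap on opposite strands, and near-identical copies, may therefore share reads. Per the file headers, the authors deposited whole-number counts per gene and library, FPKM, and a table of their own comparison with a log2 fold change, p-value and q-value. The p-values and q-values of that deposited table compare 1 library with 1 library and are not given here. Its UP and DOWN calls were counted, and a gene with a call or a p-value was taken as compared.

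Counts were scaled to CPM with TMM factors from edgeR 4.0.16 (R 4.3.3), with no model fitted. DESeq2 1.42.0 gave alternative size factors. Folds are CPM ratios with exact Clopper-Pearson 95% intervals of the 2 counts given their sum (scipy 1.17.1). Intervals and floors cover counting error only, not PCR copies or variation between cultures. Adding 1 CPM understates the difference of low genes. The calculation was tested on simulated counts with counting error alone, which do not cover variation between cultures.

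Exons, overlaps, 75-base stretches and coding sequences came from GENCODE 29 (GRCh38), where all 249 identifiers were found, 232 with identical coordinates. Protein features were translated from those coding sequences, because no protein table was used here. Promoters are RefSeq's on GRCh38.p14, matched by symbol or identifier. Coordinates of genes are the authors'.

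Named genes were the members past the size rule with at least 30 counts over both libraries (up to 10 each way), the 6 of highest mean FPKM, the largest ratio in each cluster, and in the partner list TRIM28, SETDB1 and the 4 largest ratios. Members just within the rule, members in runs without counts, members with a known function, promoter letters, the wider KRAB pattern and abundance classes were chosen after values were seen. Members and lists were chosen with earlier results of these data known. Alternatives were other scalings, pseudocounts and filters, the deposited FPKM, and leaving out members that share exons.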

Additional observations from a re-analysis of the deposited data

How the results depend on the processing

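No paired analysis was possible because each group has 1 library, and for the same reason no library could be left out. The median log2 ratio of the measured members stayed between -0.11 and -0.05 under all 8 alternatives. The count of 2 higher members was 1 with DESeq2 size factors, 1 with total counts, 5 with a pseudocount of 0.25, 0 with a pseudocount of 3, 1 at a larger CPM of at least 5 and 0 in the deposited FPKM. The count of 8 lower members was 16 with a pseudocount of 0.25, 1 with a pseudocount of 3, 4 at a larger CPM of at least 5, 1 in the deposited FPKM and 5 without members that share exons. Over all measured genes the shares were 2.53% higher and 1.87% lower with a pseudocount of 0.25, and 0.735% and 0.524% with 3. In the FPKM alternative 73 members were measured, with ZNF77 alone in cluster 1, so its cluster medians come from fewer genes. Cluster medians depended on the setting. In FPKM cluster 8 was at 0.016 instead of -0.18, cluster 1 at -0.11 instead of 0.17 and cluster 7 at -0.04 instead of 0.05, and cluster 5 had no measured member. Without a filter cluster 9 was at 0.035 instead of -0.036 and cluster 5 at -0.28 instead of -0.13. Of 85 recomputed ratios of named members 16 fell outside the counting interval taken on the log2(CPM + 1) scale, all with another pseudocount or in FPKM, which change that scale, and none changed sign. The counting intervals of 97 of the 161 measured members included 1, so many of the small differences were within counting error.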

Other observations

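Among the 211 measured ZNF genes of other chromosomes 5 were higher (2.37%) and 4 lower (1.90%) by the size rule, with 1.31% and 0.994% over all measured genes. ZNF133, a KRAB zinc finger gene on chromosome 20, had 422 parental and 104 resistant counts, 3.75-fold lower (95% counting interval 3.02 to 4.70). ZNF672, on chromosome 1, had 127 and 453 counts, 3.86-fold higher (3.16 to 4.73), and ZNF394, on chromosome 7, had 76 and 212, 3.02-fold higher (2.31 to 3.97). Each of these folds was larger than that of either higher member on chromosome 19. These 3 genes were chosen after their values were seen.

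Of 20 zinc finger genes of chromosome 19 with other names (ZFP, ZSCAN, ZBTB, MZF1), 8 were measured and 0 passed the size rule, which says little beside the 2.30% of all measured genes. The lowest ratio was that of ZFP14, in the same stretch as cluster 6, with 76 and 33 counts and a fold of 0.469 (0.302 to 0.715). ZFP30 of the same stretch had 220 and 138 counts, a fold of 0.678 (0.544 to 0.843).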
